A study of Mus musculus with 6 samples.

Results

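The genes described here are 10 members of the Krüppel-like factor (KLF) family that are expressed in the heart or vessels or are known from metabolism: Klf2, Klf3, Klf4, Klf5, Klf6, Klf9, Klf10, Klf11, Klf13 and Klf15. They were chosen by name, with earlier results of these data known. Each matched 1 row of the deposited gene table, which held 43432 genes, 17 of them KLF genes. KLF proteins are transcription factors that bind GC-rich and CACCC-containing DNA through C2H2 zinc fingers at their C-terminal end. Their N-terminal parts differ and recruit different partners, so that some members mainly repress transcription through CtBP or SIN3A and others mainly activate it. In the heart and its vessels KLF15 is known as a glucocorticoid-responsive and clock-controlled regulator of lipid and amino acid use, KLF2 and KLF4 keep endothelium quiescent, and KLF10 and KLF11 were first described as early genes of TGF-β signaling.

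RNA of right and left atria came from wild-type C57/Bl6J mice. The 3 obese samples were from mice given a high-fat diet (HFD) for 10 weeks from an age of 6 weeks, and the 3 lean samples were from mice given control chow over the same time. The comparison asks how diet-induced obesity, a risk factor for atrial fibrillation, changes atrial transcription. Sex, and whether a sample pooled several animals, were not given in the sources used here, so p-values measure the spread between these samples. The labels contradict one another on the diet: the sample titles and the column names give one diet and the treatment field gives the opposite one for all 6 samples. The titles and column names were followed, and every direction below rests on them. In this bulk tissue, fewer cells of a type and less RNA per cell cannot be told apart.

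A value below is a normalized count, the reads of a gene divided by 1 size factor per library. The libraries held 15874251 to 28971508 reads on genes, with lean library 2 the deepest and with the highest share of mitochondrial reads, 30.7% against 19.5% to 24.4% elsewhere. A signal of 3 reads corresponded to 2.05 to 3.41 normalized counts, counting error only. The obese and lean libraries entered a limma fit of log2(normalized count + 1), a scale that understates the change of low genes, and a gene was called at an adjusted p under 0.05 over all 15275 genes with a mean of at least 10. Of those genes 114 (0.746%) were called, 74 of them higher in obese atria (0.484%). Myl7, the atrial myosin light chain, was high in every library, at 31186, 27168 and 58765 in obese and 56346 to 60190 in lean libraries, against 2290 to 8176 for its ventricular counterpart Myl2, which was highest in lean library 2. The obese libraries differed among themselves: Nppa, encoding atrial natriuretic peptide, was 333975 in obese library 3, against 171702 and 179008 in obese libraries 1 and 2 and 263703 to 305627 in lean libraries. The summed level of 12 immediate early genes ranged from 4058 to 10840.3 in obese libraries, highest in library 3, and from 3790.1 to 7652 in lean libraries, highest in library 3 of that group too.

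Of the 10 KLF genes, Klf11 and Klf10 rose in obese atria and no member fell. The other 8 did not pass the test, and 7 of these 8 had a fitted change above 0. The median log2 fold change of the 10 was 0.49, against 0.00 over all genes tested. In 6 of the 10, Klf4, Klf6, Klf9, Klf10, Klf11 and Klf15, every obese library was above every lean library, a pattern found in 8.86% of all genes tested. An unadjusted p under 0.05 was found for 6 members (12.2% of all genes in either direction): these were Klf2, Klf4, Klf9, Klf10, Klf11 and Klf15. Summed over the 10 genes, the level was 8556 to 9854 in obese and 6287 to 6845 in lean libraries, without overlap. The 10 were picked with earlier results of these data known, so their median, counts and sum are not an independent result. The 3 other KLF genes tested were Klf7 (0.29), Klf16 (-0.18) and Klf12 (-0.69). Of these, 0 were called, 0 had separate groups and 0 had an unadjusted p under 0.05 in limma. With 3 samples in each group an exact permutation test cannot give a two-sided p below 0.1.

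**Figure D1:**
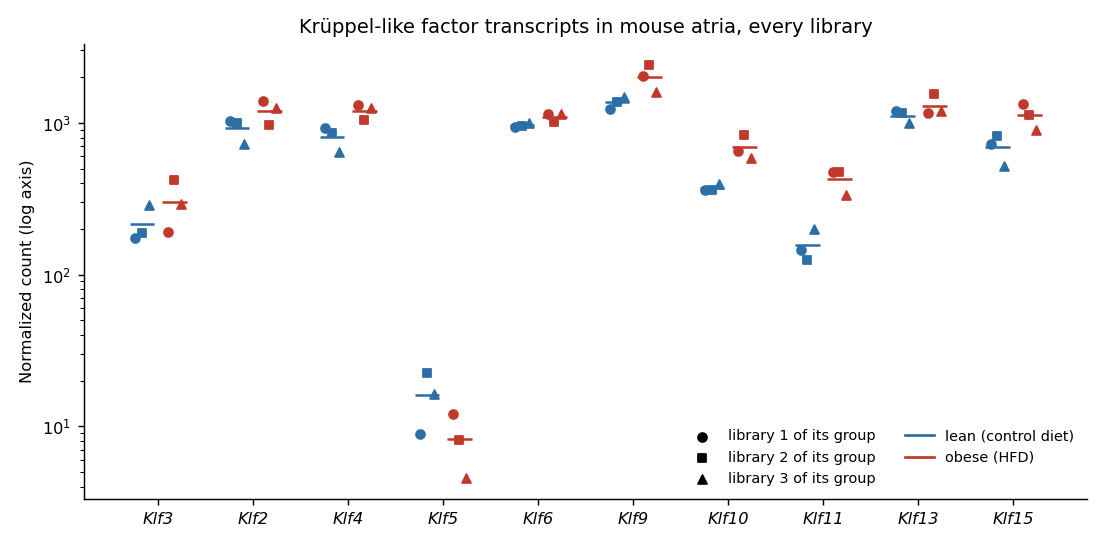
Normalized counts (log axis) of the 10 KLF genes in each of the 6 libraries, with blue for lean and red for obese, a symbol for each library of its group and a line for the group mean. The 2 groups are separate for 6 genes, most widely for Klf11, and overlap for Klf2, Klf3, Klf5 and Klf13.

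The sequence just before the transcription start is shown for the 4 members whose upstream window held the E-box letters CACGTG, the element read by the clock factors CLOCK and BMAL1 and by other basic helix-loop-helix factors, and for Klf2, whose window held a site of MEF2, the factor through which flow acts on it. Each run is 250 bases, 5′ to 3′ on the gene's strand, ends 1 base before the RefSeq start and was read from RefSeq on GRCm38.p6. Capitals mark CACGTG in the first 4 and the MEF2 site in Klf2, whose GENCODE start lies just inside the 3′ end of its window.
Klf11, chr12:24651121-24651370 (+): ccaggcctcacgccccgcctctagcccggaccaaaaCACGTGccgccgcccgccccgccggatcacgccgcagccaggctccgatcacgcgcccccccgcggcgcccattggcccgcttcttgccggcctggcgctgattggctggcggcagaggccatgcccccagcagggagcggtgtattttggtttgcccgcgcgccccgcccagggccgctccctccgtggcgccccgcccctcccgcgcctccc
Klf15, chr6:90462326-90462575 (+): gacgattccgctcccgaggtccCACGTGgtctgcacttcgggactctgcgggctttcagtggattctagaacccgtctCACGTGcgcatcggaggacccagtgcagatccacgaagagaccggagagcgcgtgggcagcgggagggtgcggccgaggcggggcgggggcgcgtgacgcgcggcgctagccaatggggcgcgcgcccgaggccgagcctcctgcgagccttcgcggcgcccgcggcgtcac
Klf4, chr4:55532476-55532725 (-): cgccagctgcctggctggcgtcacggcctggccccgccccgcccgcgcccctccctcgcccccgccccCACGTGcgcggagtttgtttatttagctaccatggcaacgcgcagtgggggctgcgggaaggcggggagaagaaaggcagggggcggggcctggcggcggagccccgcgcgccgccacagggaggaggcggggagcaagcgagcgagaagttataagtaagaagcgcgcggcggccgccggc
Klf6, chr13:5861239-5861488 (+): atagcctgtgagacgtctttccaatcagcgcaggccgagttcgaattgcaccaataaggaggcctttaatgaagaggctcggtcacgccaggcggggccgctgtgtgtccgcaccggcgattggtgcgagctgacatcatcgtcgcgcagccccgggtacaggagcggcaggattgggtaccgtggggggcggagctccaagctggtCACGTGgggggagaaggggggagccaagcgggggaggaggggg
Klf2, chr8:72318812-72319061 (+): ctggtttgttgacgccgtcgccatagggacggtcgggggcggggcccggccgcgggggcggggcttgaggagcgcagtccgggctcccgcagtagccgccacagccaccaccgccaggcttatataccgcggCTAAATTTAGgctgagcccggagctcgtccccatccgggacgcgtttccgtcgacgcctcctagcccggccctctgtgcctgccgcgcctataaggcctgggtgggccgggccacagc
Of the 10 members, 8 had an upstream sequence in the RefSeq table. The E-box was present once each in Klf11 (first base at -214 from the start), Klf4 (-182) and Klf6 (-43), and at 2 places in Klf15 (-228 and -172). The windows of Klf2, Klf3, Klf9 and Klf13 did not hold it. Over all 32851 windows of this length 6.02% held CACGTG on either strand. The MEF2 site lay from -118 to -109 in Klf2 and in no other member's window, and 2.92% of all windows had one. The GC box GGGCGG, to which Sp and KLF proteins bind, was found in 7 of the 8, with 6 copies in Klf3, 4 each in Klf4 and Klf11 and none in Klf9, and in 32.7% of all windows. Neither strand of the 8 windows held the glucocorticoid half-site AGAACA (16.1% of all windows), the serum response element (1.47%), the full CRE TGACGTCA (1.55%) or the SMAD element GTCTAGAC (0.167%). The shorter CRE half-site TGACG was present in 5 of the 8 (Klf2, Klf4, Klf9, Klf13 and Klf15) and in 17.8% of all windows, and the SMAD half-site CAGAC in Klf3 and Klf15 and in 42.2% of all windows. The GC content was 59.6% in Klf9 to 78.4% in Klf3, above the median of 52.4% over all windows. These matches describe letters, not sites shown to be bound.

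The largest change was in the SIN3A-binding group, which holds Klf9, Klf10, Klf11, Klf13, Klf14 and Klf16 and acts mainly as repressors. Of its 5 members tested, 2 were called higher (0.484% of all genes tested) and none lower. Their median log2 fold change was 0.54. The 2 are Klf11 and Klf10, the calls already given above, so this count is not a further result. Klf11 (ENSMUSG00000020653, chr12:24651371-24662774, plus strand) encodes a TGF-β-inducible repressor also known from monogenic diabetes. Its normalized counts were 475, 476 and 333 in obese libraries 1 to 3 and 146, 125 and 201 in lean libraries 1 to 3. All 3 obese values were above the lean ones, and obese library 3 and lean library 3 were the closest pair. The means were 428 ± 82.5 and 157 ± 39.3 (SD, n = 3 each), and limma fitted a log2 fold change of 1.45 (SE 0.21) with an adjusted p of 0.0173. This is a 2.73-fold higher level with a 95% interval from 1.97 to 3.78, and Klf11 was 33rd of all genes by p.

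Klf10 (ENSMUSG00000037465, chr15:38294413-38300707, minus strand), the closest relative of Klf11 and also a TGF-β-inducible early gene, rose by less. It had 649, 837 and 591 normalized counts in obese and 361, 359 and 393 in lean libraries. The lean values lay close together, with a coefficient of variation of 5.23% against 18.6% in the obese group, and the groups were 197 counts apart at their nearest. The log2 fold change was 0.88 (SE 0.15, adjusted p = 0.031 in limma), or 1.84-fold with a 95% interval from 1.46 to 2.32. Klf10 was more abundant than Klf11 in every library, but the gap was narrower in obese atria. The within-library log2 difference, Klf10 minus Klf11, was 0.449, 0.813 and 0.826 in obese and 1.303, 1.513 and 0.965 in lean libraries, again without overlap. The change of -0.56 in this difference had an exact permutation p of 0.1 (two-sided, n = 3 per group), the smallest that this design allows, and 0.2 after adjustment over the 4 pairs of members compared.

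Klf9 (chr19:23141226-23166911), a direct target of glucocorticoid and thyroid hormone receptors, had 2029, 2418 and 1605 counts in obese and 1236, 1379 and 1489 in lean libraries. The groups did not overlap, but the log2 fold change of 0.54 (95% interval 0.20 to 0.88) had an adjusted p of 0.149. Klf13 (chr7:63886347-63938915), a relative of Klf9 with roles in heart development and T cells, had 1160, 1542 and 1191 counts in obese and 1190, 1154 and 1000 in lean libraries. Its groups overlapped and its log2 fold change was 0.21 (95% interval -0.10 to 0.52, adjusted p = 0.599). The change in Klf9 relative to Klf13 was 0.33 on the log2 scale (exact permutation p = 0.2, n = 3 per group, adjusted 0.267), and it was 0.21 without lean library 1. An antisense transcript, Gm27252, lies within Klf13 without sharing exons and had a mean of 82.7 counts. Klf16, a further member of the group, had 119, 105 and 134 counts in obese and 160, 129 and 117 in lean libraries (log2 fold change -0.18, adjusted p = 0.784). Klf14, an imprinted gene tied to adipose metabolism, had a mean under 10 and was not tested.

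Klf15, which stands outside the main groups, is the member best known in cardiac muscle, where it governs daily rhythms of fuel use and restrains growth. The gene lies at chr6:90462576-90475238 on the plus strand. Its counts were 1337, 1122 and 902 in obese and 728, 814 and 521 in lean libraries. Obese library 3 was the lowest obese value and was only 87.4 counts above lean library 2, the highest lean value. The log2 fold change of 0.71 (95% interval 0.29 to 1.13) had an unadjusted p of 0.00359 and an adjusted p of 0.129 in limma, so it was not called. Klf17, the other gene outside the main groups, had no read in any library.

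**Figure D2:**
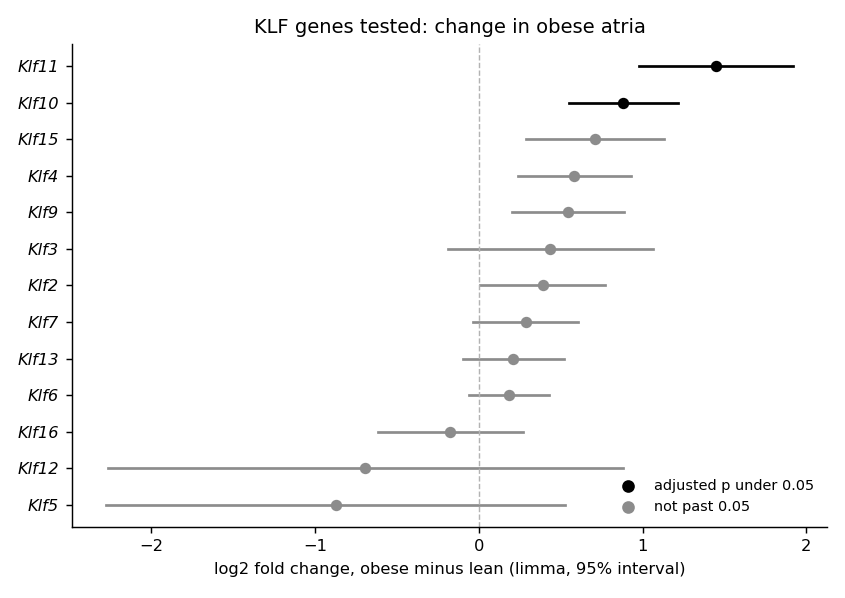
log2 fold change, obese minus lean, of the 13 KLF genes tested, with the 95% interval from limma as a line and black for an adjusted p under 0.05. Klf11 (1.45) and Klf10 (0.88) are black, and the interval lies above 0 also for Klf15, Klf4, Klf9 and, narrowly, Klf2.

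The second group, mostly activators that bind acetyltransferases, includes the endothelial factors Klf2 and Klf4, and 0 of its 5 members tested were called by limma or edgeR, 2 had an unadjusted p under 0.05 and DESeq2 called Klf4. Klf4 (chr4:55527143-55532466, minus strand), also a pluripotency factor and a regulator of macrophages and smooth muscle, had 1314, 1038 and 1254 counts in obese and 920, 854 and 647 in lean libraries. The groups were separate by 118 counts. The log2 fold change was 0.58 (95% interval 0.24 to 0.93, adjusted p = 0.129). Klf2 (chr8:72319033-72321656, plus strand), the flow-responsive factor of endothelium, had 1399, 972 and 1246 counts in obese and 1035, 998 and 730 in lean libraries. Obese library 2 fell among the lean values, and the log2 fold change of 0.39 (95% interval 0.01 to 0.77) had an adjusted p of 0.396. Klf2 exceeded Klf4 within each lean library by 0.17, 0.22 and 0.17 on the log2 scale, and the difference was 0.09, -0.10 and -0.01 in the obese libraries. The shift of -0.19 had an exact permutation p of 0.1 (n = 3 per group), adjusted 0.2.

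Klf6 (chr13:5861489-5870393), an injury-responsive gene expressed in many cell types, was the least variable member. Its counts of 1136, 1018 and 1140 in obese and 941, 951 and 1001 in lean libraries were separate by 16.6 counts. The log2 fold change was 0.19 (95% interval -0.06 to 0.43, adjusted p = 0.551). The difference of Klf2 from Klf6 moved by 0.20 (exact permutation p = 0.5, n = 3 per group, adjusted 0.5), by 0.02 without lean library 3 and by 0.31 without lean library 1. Klf7, a regulator of neurons and adipocytes, had 553, 663 and 721 counts in obese and 551, 465 and 569 in lean libraries, with overlap and an adjusted p of 0.47 for a log2 fold change of 0.29. Klf5 (chr14:99298691-99313405), known in smooth muscle remodeling and in cardiac fatty acid oxidation through Ppara, was close to the detection limit. It had 12, 8 and 4 reads in obese and 8, 33 and 15 in lean libraries. The log2 fold change of -0.87 had a 95% interval from -2.28 to 0.53 (adjusted p = 0.636), and the coefficients of variation were 45.5% and 42.7%, so a difference was not detectable with these reads and this spread. Klf1, the erythroid factor, had a mean under 10 and was not tested.

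In the CtBP-binding group of repressors, 0 of 2 members tested were called by limma, edgeR or DESeq2, and 0 had an unadjusted p under 0.05. Klf3 (chr5:64803523-64830129), which restrains adipogenesis and B cell programs, had 192, 422 and 290 counts in obese and 175, 188 and 287 in lean libraries. Its coefficients of variation of 38.4% and 28.5% were the highest after those of Klf5, and the groups overlapped. The log2 fold change was 0.44 (95% interval -0.19 to 1.06, adjusted p = 0.587). Exons of Gm20033, on the opposite strand, overlap exons of Klf3, with a mean of 7.86 counts, and no source used here says whether reads were counted by strand. Klf12, a repressor of Tfap2a, had 5.02, 24.5 and 10.2 counts in obese and 7.84, 21.2 and 36.1 in lean libraries (log2 fold change -0.69, adjusted p = 0.754). Klf8 had a mean under 10.

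Members varied between libraries in different ways. Obese library 2 was highest of all 6 libraries for 5 members, among them Klf9, Klf10 and Klf11. Obese library 3 was lowest of the obese group for 5 members: Klf5, Klf9, Klf10, Klf11 and Klf15. Lean library 3 had the lowest value of all 6 for 4 members, Klf2, Klf4, Klf13 and Klf15. Leaving out obese library 3 gave 4 members called, with Klf9 (adjusted p = 0.021) and Klf15 (0.0398) added to Klf10 and Klf11, and 342 genes called in all. Leaving out lean library 3 left Klf11 alone (adjusted p = 0.0374). Without any one of the other 4 libraries no member was called, and the adjusted p of Klf11 lay between 0.0596 and 0.0833. The fitted log2 fold change of Klf11 stayed between 1.298 and 1.638 and that of Klf10 between 0.74 and 0.99 over the 6 fits.

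**Figure D3:**
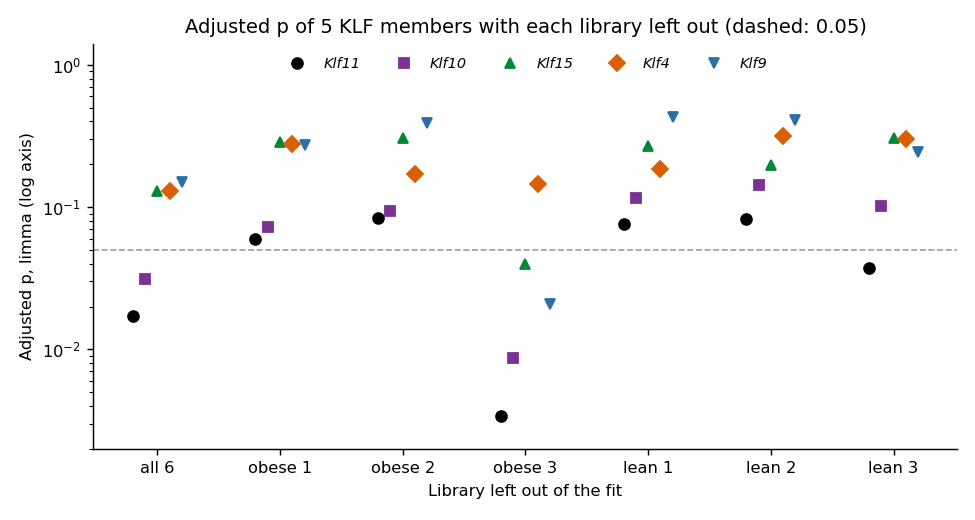
Adjusted p from limma (log axis) for 5 KLF genes with all 6 libraries and with each library left out, with a dashed line at 0.05. Only without obese library 3 do 4 of the genes lie below the line, and Klf4 is above it in every one of these fits.

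Per kilobase of exon, Klf2 was the most abundant member in both groups, at a mean of 499 normalized counts per kb in lean (395 to 560) and 653 in obese atria (526 to 758). In lean atria Klf9 (284 per kb), Klf4 (265), Klf15 (246) and Klf6 (220) followed, and the ranges of neighbours in that order overlapped. Klf13 (148), Klf10 (88.8), Klf11 (36.2), Klf3 (19.3) and Klf5 (3.07) came after them, each with a range separate from the next. In obese atria Klf9 (419), Klf15 (401) and Klf4 (394) overlapped as neighbours and stood above Klf6 (250), with which Klf15 had overlapped in lean atria. Klf10 (166) reached the range of Klf13 (172), while Klf11 (98.6) stayed below both and above Klf3 (26.8) and Klf5 (1.59). These levels use the exon lengths of the GENCODE annotation of GRCm38, not the transcripts the atria used.

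**Figure D4:**
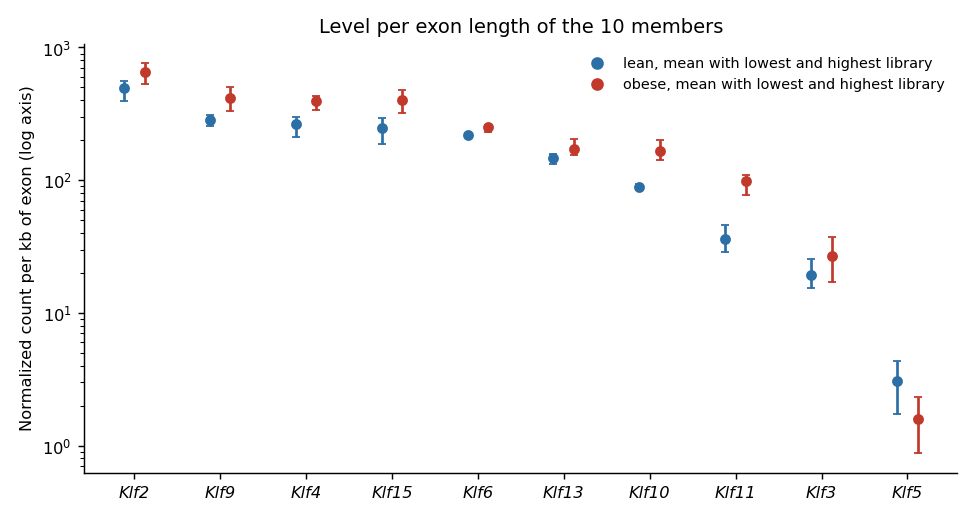
Normalized counts per kilobase of exon (log axis) of the 10 KLF genes, with the mean as a point, the lowest and highest library as bars, blue for lean and red for obese. Klf2 is highest in both groups and Klf5 lowest (1.59 in obese and 3.07 in lean atria).

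The genes whose pattern over the 6 libraries was most like a member were taken for the 3 members with the smallest p, by the root mean square difference of log2 values centred on the lean mean. The difference between the diets is part of this measure. A fold change and an order of libraries like those of the member therefore follow from the selection. For Klf11 the closest was Txnip (0.182), the thioredoxin-interacting protein that restrains glucose uptake, which rose by a log2 fold change of 1.62 (adjusted p = 0.00937). It was followed by Tcp11 (0.203) and the ectodysplasin receptor Edar (0.230), which were not called. Txnip had 20129, 22435 and 12289 counts in obese and 5430, 5256 and 6745 in lean libraries, with obese library 3 lowest of its group as for Klf11. For Klf10 the closest were the guanine deaminase Gda (0.0562), Uhrf1bp1l (0.101) and Dock8 (0.103), a guanine nucleotide exchange factor of immune cells, all called higher with log2 fold changes of 0.83, 0.81 and 0.88. For Klf4 they were Slc9a3r2 (0.063), a scaffold of ion transporters, Dram1 (0.0872) and Igsf6 (0.10), none of them called.

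The other genes of the KLF pathways were described by lists, with calls by limma. In the first 3 lists below edgeR and DESeq2 called 0 genes as well. An unadjusted p under 0.05 in limma was found for 0 Sp factors, 0 cofactors and 3 genes of the MEKK3 list. Over all genes tested the share was 12.2%. The Sp factors, the nearest relatives of the KLF family, had 0 of 5 genes called in either direction and a median log2 fold change of -0.09, with the smallest p for Sp4 (-0.43), Sp1 (0.21) and Sp2 (-0.09). The KLF cofactors, 11 genes that include CtBP, SIN3A and histone deacetylase subunits and ubiquitin ligases of KLF proteins, had 0 called and a median of 0.02. The smallest p there were those of Fbxw7 (-0.25), a ubiquitin ligase subunit, Ctbp2 (0.27) and Hdac2 (-0.21). The list for the MEKK3-ERK5-MEF2 route, which switches on Klf2 and Klf4, had 0 of 10 genes called and a median of 0.02. It also holds Krit1, Ccm2, Pdcd10 and Heg1, whose direction of action on the route was not considered. The median therefore gives no direction for the route. The lowest p on this list were those of the endothelial receptor Heg1 (0.35), Map3k3, which encodes MEKK3 (0.43), and Mef2d (0.27). Their adjusted p ran from 0.339 to 0.378.

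The list of endothelial genes under KLF2 and KLF4 mixes 3 genes that these factors are known to induce, Nos3, Thbd and S1pr1, with 3 that they are known to repress, Edn1, Vcam1 and Sele. The list was fixed with earlier results of these data known, so its counts are not an independent result. Of the 6, 0 were called and the median log2 fold change was 0.30. In 4 of the 6 every obese value was above every lean value (8.86% of all genes tested). The unadjusted p was under 0.05 for 4 of the 6 (12.2% of all genes in either direction), edgeR called 0 and DESeq2 called S1pr1. The sphingosine-1-phosphate receptor gene S1pr1 had 1656, 1608 and 1790.1 counts in obese and 1106, 1156 and 1311 in lean libraries (log2 fold change 0.50, adjusted p = 0.0813). Thbd, encoding the anticoagulant thrombomodulin, differed by 0.34 on the log2 scale (adjusted p = 0.203) and Nos3, encoding endothelial nitric oxide synthase, one of 0.27 (0.356), so the 3 induced genes were all among those 4. Of the repressed genes, named here after their values were seen, the adhesion molecule gene Sele (1.04, adjusted p = 0.395) was the fourth, and Edn1 (0.18) and Vcam1 (-0.07) had overlapping groups. The summed level of 6 endothelial markers was 16084 to 16937 in obese and 13878 to 14248 in lean libraries, but 0 of the 6 were called by limma and 1 had an unadjusted p under 0.05. That gene was Pecam1, with means of 5917 and 3989 (log2 fold change 0.57, adjusted p = 0.0504, called by DESeq2). The other markers are named after their values were seen. Tie1 (0.16, adjusted p = 0.576 in limma) also had every obese value above every lean value. Cdh5 (0.04), Emcn (0.13), Kdr (0.14) and Egfl7 (-0.19) had overlapping groups. None of the 6 was at 0. The 5 macrophage markers, another source of Klf4 and Klf2, summed to 5007 to 5344 in obese and 3881 to 4816 in lean libraries, with 0 called and 2 at an unadjusted p under 0.05. The part of these cell types in the values of Klf2 and Klf4 was not tested.

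Of 9 genes under KLF15 in muscle and liver, 0 were called and the median log2 fold change was -0.22. An unadjusted p under 0.05 was found for 3 of them, edgeR called 0, and DESeq2 called Kcnip2 and Gpt lower. Kcnip2, the potassium channel subunit whose daily rhythm KLF15 drives, had 417, 482 and 519 counts in obese and 649, 872 and 690 in lean libraries, all obese values below the lean ones (log2 fold change -0.63, adjusted p = 0.0886). Gpt, encoding alanine aminotransferase, had a change of -0.85 (adjusted p = 0.0898). Fbxo32, encoding the muscle ubiquitin ligase atrogin-1, went the other way, with 5095, 5272 and 2050.2 counts in obese and 1737, 1987 and 1855 in lean libraries (1.03, adjusted p = 0.158). Obese libraries 1 and 2 were high for Fbxo32, and obese library 3 was close to the lean group. Of 4 genes that KLF15 represses in the heart, 0 were called by limma, edgeR or DESeq2 and 0 had an unadjusted p under 0.05. Log2 fold changes were 0.44 for Ctgf, -0.40 for Nppa and -0.17 for Myocd. Ctgf had 14570 counts in obese library 3, against 6166 and 7547 in obese libraries 1 and 2 and 5333 to 7522 in lean libraries. Nppa was highest in obese library 3 too. The 5 genes of the list for KLF5 and PPAR had 0 called by each of these tools, 2 at an unadjusted p under 0.05 and a median of 0.14, with Pparg at 0.56 (adjusted p = 0.373), Ppargc1a at 0.39 (0.391) and Rxra at 0.14 (0.725).

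Of the 10 genes reported from the TGF-β list, which bears on Klf10 and Klf11, 0 were called by limma, edgeR or DESeq2, 4 had an unadjusted p under 0.05, and the median log2 fold change was 0.30. The receptor gene Tgfbr2 had 1906, 2262 and 1547 counts in obese and 1478, 1378 and 1515 in lean libraries (log2 fold change 0.37, adjusted p = 0.327). Its obese values were above the lean ones, and obese library 3 was lowest of its group, as for Klf11. Skil, which encodes a repressor of SMAD proteins, had a change of 0.50 (0.349) and Smad4, encoding the common SMAD, one of 0.36 (0.363). Unlike Tgfbr2 and Klf11, Skil and Smad4 were highest of the obese group in library 3, at 622 and 1082 counts. The 12 immediate early genes had 0 called by limma, edgeR or DESeq2, 1 at an unadjusted p under 0.05 and a median of 0.18, with Junb at 0.61, Myc at 0.95 and Atf3 at -1.05 the smallest p.

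Among the lists of pathway genes the highest median was that of the glucocorticoid receptor and its targets, a list that does not hold KLF genes. Of 12 genes, 4 were called higher (0.484% of all genes tested) and 0 lower, and DESeq2 called 5, with Fkbp5 added. The median log2 fold change was 1.12, and 7 of the 12 had every obese value above every lean value (8.86% of all genes tested). The list was fixed with earlier results of these data known, and Cdkn1a, Mt2 and Pdk4 were 2nd, 3rd and 4th of all genes by p. Its median and calls are therefore not an independent result. Pdk4, which shuts glucose carbon off from oxidation, had 58780.0, 64656 and 28363 counts in obese and 5700.2, 4800.3 and 5656 in lean libraries (log2 fold change 3.15, adjusted p = 0.000719). Mt2, a metallothionein, had a change of 2.74 (0.000268), the cell cycle inhibitor gene Cdkn1a one of 2.32 (0.000185) and Mt1 one of 1.44 (0.0234). These genes also respond to fasting, metals, fatty acids or DNA damage. The receptor gene Nr3c1 itself had a log2 fold change of -0.00 and was not called. Pdk4, Mt2 and Mt1 were lowest among the obese libraries in library 3, as were Klf9, Klf10, Klf11 and Klf15, while Cdkn1a was highest there.

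The 17 clock genes had 0 called higher and 1 lower, with a median log2 fold change of 0.12. Dbp, an output factor that CLOCK and BMAL1 drive through E-boxes, had 171, 241 and 154 counts in obese and 499, 547 and 491 in lean libraries and fell by 1.46 on the log2 scale (adjusted p = 0.00937). Its relatives Hlf (-0.83, adjusted p = 0.0616) and Tef (-0.76, 0.0668) were below the lean range in every obese library but were not called in limma. DESeq2 called 4 clock genes lower (Dbp, Hlf, Tef and Per3) and 2 higher (Arntl, which encodes BMAL1, and Nfil3, a repressor of the Dbp family's targets), while edgeR called Dbp. The time of day of tissue collection was not given in the sources used here, and its part in the values of Klf9, Klf10 and Klf15 was not tested.

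**Figure D5:**
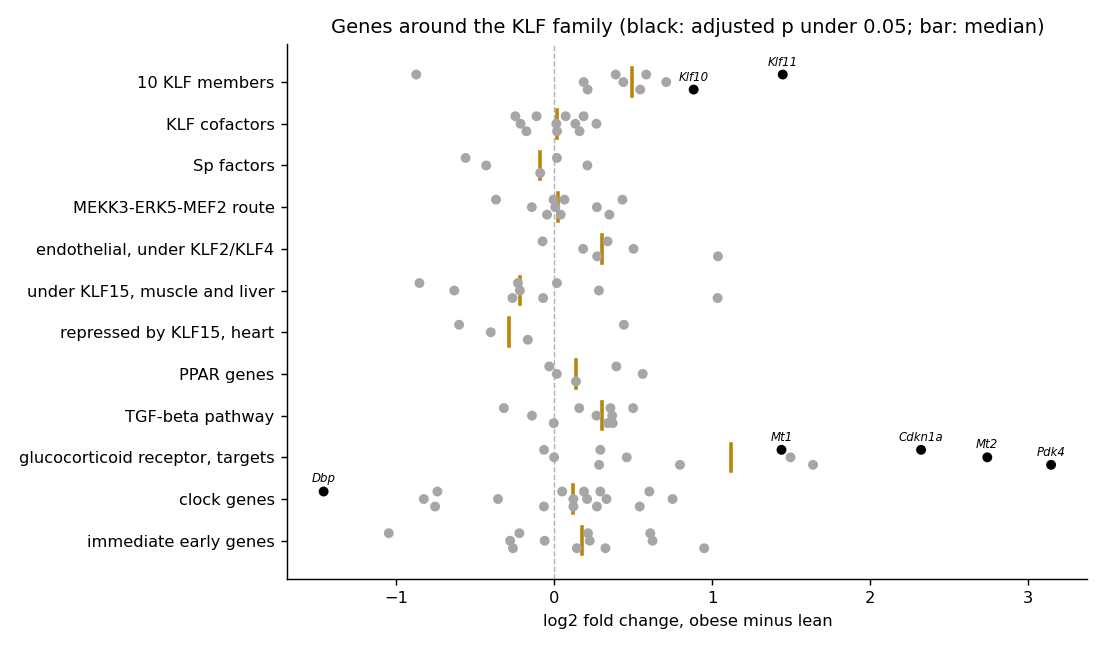
log2 fold change, obese minus lean, of each gene reported from the 10 KLF members and 11 lists around them, with black for an adjusted p under 0.05 and a bar at the median of each list. The KLF median is 0.49 and that of the glucocorticoid list 1.12, and Dbp at -1.46 is the one called gene that was lower.

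Markers of other cell types and of the myocytes gave the setting of these values. The 5 atrial myocyte markers had a median log2 fold change of -0.40 and 4 below 0, with 0 called by limma, edgeR or DESeq2 and 2 at an unadjusted p under 0.05: Myl7 (-0.66) and Sln, a regulator of the calcium pump (-0.32), for which every obese library was below the lean range. The 4 ventricular markers also had a median of -0.40, with 0 called by these tools and Myh7 (-0.41) at an unadjusted p under 0.05. Of these, Myl2, Myl3 and Irx4 were highest in lean library 2, at 8176, 5513 and 32.2 counts. Myh7 did not share this peak, with 3677 counts there and 3697 in lean library 3. Brown adipocyte markers summed to 616 to 1283 in obese and 187 to 330 in lean libraries, with Ucp1 (log2 fold change 4.43, adjusted p = 0.0446) and Cidea (1.21, 0.031) called higher, though edgeR called only Cidea. White and general adipocyte markers had 0 of 7 called and overlapping sums, 6593 to 12538 against 3517 to 6974. Schwann cell markers summed to 315 to 468 in obese and 494 to 620 in lean libraries, with 0 of 3 called. Smooth muscle and pericyte markers summed to 11782 to 12088 against 9811 to 11401, without overlap and with 0 of 5 called. Fibroblast, epicardial and red cell markers had 0 called and overlapping sums, and lymphocyte markers were all under a mean of 10. At an unadjusted p under 0.05 there were 1 adipocyte, 2 Schwann cell, 1 fibroblast and 0 smooth muscle markers, and of these lists' genes edgeR called 0 and DESeq2 only the adipocyte marker Fabp4. None of the markers was at 0 throughout, and the part of these cell types in the KLF values was not tested.

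The share of members called depended on the test. DESeq2 on the recovered reads called 5 members higher, Klf4, Klf9, Klf10, Klf11 and Klf15, where it called 2.07% of 14079 genes in that direction. edgeR's quasi-likelihood test called Klf10 and Klf11, as limma did. Without a trend of variance on expression limma called neither (adjusted p = 0.174 for Klf11 and 0.177 for Klf10), and with mitochondrial genes left out Klf10 was just outside the threshold (0.0516).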

How the data were processed

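Per the labels and the study's methods, the authors sequenced directional libraries of atrial RNA and placed the reads on GRCm38 with STAR. Reads with a unique position were then counted per Ensembl gene by Salmon, and DESeq2 served for their own comparison. The deposited signal is the read count of each gene divided by 1 size factor per library, made by the authors and called normalized count here. The authors' columns of fold changes, p-values and ranking metric were not used. Dividing a library's deposited values by the lowest positive one gave whole numbers (tolerance 0.01) for 100% of them, taken as the reads.

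Groups were taken from sample titles. The fit used limma 3.58.1 in R 4.3.3 (lmFit and eBayes, trend = TRUE) with log2(normalized count + 1) as the response, a minimum mean of 10, all 6 libraries, no covariates, Benjamini-Hochberg adjustment and a threshold of 0.05. Differences between 2 members within libraries had two-sided exact permutation tests. Gene symbols came from GENCODE, for 42462 of 43432 identifiers (97.8%), and members were matched without regard to case. Promoter sequences and motif shares came from RefSeq on GRCm38.p6, both strands searched. On simulated data the test recovered 93 of 100 genes changed by 1 on the log2 scale and 100 of 100 changed by 2, and called 13 unchanged genes among 15138. The changed genes were drawn only from those with higher means. The simulated dispersion depended on a gene's mean alone, and no library was made to stand apart. These rates therefore need not hold for the real libraries.

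The members, lists and tests were chosen with earlier results of these data known. Named are all members, every called gene of each list or otherwise up to 3 with the smallest p, and the 3 genes most like each of the 3 members with the smallest p. Alternatives were quantile normalization, mitochondrial genes left out, no variance trend, other filters, a pseudocount of 0.1, the replicate number as a block, each library left out, edgeR 4.0.16 (TMM or RLE), DESeq2 1.42.0 on the recovered reads, and an added log2 fold change criterion of 1. Protein sequences were not used here. From the TGF-β list 1 gene is not reported here, and that list's counts and median are without it.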

Additional observations from a re-analysis of the deposited data

How the results depend on the processing

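The direction of all 10 KLF genes was the same in each of the 159 fits of a member under an alternative. Of the 32 fits of Klf10 and Klf11, 20 kept the call and 12 lost it, and of the 127 fits of the other 8 members 5 gained a call. The number of members called was 2 with quantile normalization, other filters, a pseudocount of 0.1 and edgeR, 1 (Klf11) with mitochondrial genes left out or with a log2 fold change over 1 asked for as well, 5 with DESeq2 and 0 without a variance trend. With each library left out in turn it was 0 to 4. The number of genes called was 114, against 470 with DESeq2, 69 with the fold change criterion, 0 without a variance trend in limma (1717 at an unadjusted p under 0.05) and 14 to 342 with each library left out, lowest without lean library 2 and highest without obese library 3. The cause was not tested. With the replicate block 157 genes and 2 members were called. The labels used here do not pair same-numbered libraries. The correlations of their deviations from the group mean were 0.12, -0.03 and -0.00, against -0.15 to 0.16 for libraries of different numbers. With 3 libraries per group these values cannot tell whether same-numbered libraries belong together. No difference between 2 members reversed with a pseudocount of 0.1 or with a library left out, but Klf2 minus Klf6 ranged from 0.02 to 0.31 and Klf9 minus Klf13 from 0.21 to 0.47 with a library left out. Klf2, Klf3, Klf5, Klf6 and Klf13 were called in none of these fits, and few reads limit what can be said of Klf5.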
